A study of Saccharomyces cerevisiae with 24 samples.

Results

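The genes described here encode 10 amino acid permeases of the plasma membrane of budding yeast (Saccharomyces cerevisiae): GAP1, AGP1, GNP1, TAT1, TAT2, BAP2, BAP3, CAN1, MUP1 and PUT4. They were chosen by name, with earlier results of these data known, and all 10 were found among the 7036 counted entries. All 10 were also among the 6169 genes that passed a filter on low counts. RNA-seq of total RNA covered rph1 deletion cells treated with rapamycin, wild type cells treated with rapamycin, untreated rph1 deletion cells and untreated wild type cells, all of strain BY4741, with 2 libraries in each group. Neither the dose nor the length of the treatment is in the labels, nor whether the 2 libraries of a group came from separate cultures or whether the deletion was 1 clone. The p-values therefore measure only the spread between these libraries. A pair of gene lists from chromatin immunoprecipitation (ChIP) of FLAG-tagged Rph1, in rapamycin-treated and in untreated cells labelled wild type, was also used.

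Yeast takes up amino acids through a family of related permeases that differ in substrate range and in control. When good nitrogen sources are plentiful, the GATA factors Gln3 and Gat1 are held inactive, and genes for the use of poor sources, such as the general permease gene GAP1 and the proline permease gene PUT4, are kept low. This regime is called nitrogen catabolite repression, and rapamycin, which inhibits the growth regulator TORC1, relieves it. A second circuit works the other way round: the sensor Ssy1, with Ptr3 and Ssy5, detects amino acids outside the cell and releases the factors Stp1 and Stp2, which activate AGP1, GNP1, TAT1, TAT2, BAP2 and BAP3. Rph1 is a JmjC histone demethylase and transcriptional repressor that acts in nutrient and stress responses. The study's title concerns its part in ribosomal gene transcription under nutrient stress.

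Library totals lay between 18037199 and 24769193 counts. RPH1 itself had 82 and 45 reads in the deletion with rapamycin, against 1695 and 2107 in wild type with rapamycin. Untreated deletion libraries held 30 and 43 RPH1 reads, against 1057 and 1850 in untreated wild type. LEU2 had 0 reads and URA3 and MET17 had 0 or 1 read in every library, genes that BY4741 lacks, so that it is grown with leucine, uracil and methionine supplied. Levels are given as CPM, counts scaled to a common effective library total. The scaling factors behind it moved with treatment, from 1.09 to 1.17 in the rapamycin libraries and from 0.864 to 0.922 in the untreated ones. All levels are therefore relative, a rise or fall of all transcripts at once is not seen, and fewer cells with a transcript cannot be told apart from less of it per cell.

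Set against each other per kilobase of gene, the permease transcripts changed places with rapamycin. In untreated cells of both genotypes the branched-chain amino acid permease gene BAP2 and TAT1, a permease gene for valine, leucine and tyrosine, stood first and second, with overlapping ranges, followed by GNP1, for glutamine. BAP2 averaged 242 ± 18 CPM per kb in the untreated deletion and 244 ± 34 in untreated wild type (SD, n = 2 each). GAP1 and PUT4 stood last, with 6.56 ± 0.96 and 2.10 ± 0.20 CPM per kb in the untreated deletion and 7.57 ± 0.98 and 2.10 ± 0.31 in untreated wild type.

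With rapamycin AGP1, a permease of broad range, and GAP1 stood first and second in both genotypes. AGP1 averaged 429 ± 82 CPM per kb in the deletion and 458 ± 133 in wild type, and GAP1 averaged 403 ± 64 and 394 ± 81, with overlapping ranges. The arginine permease gene CAN1 came next, at 222 ± 20 in the deletion and 160 ± 24 in wild type, and in wild type its range overlapped that of BAP2. The last place went to PUT4 in the deletion (32.3 ± 5.8), where its range overlapped that of MUP1, and to TAT1 in wild type (24.6 ± 4.7), whose range did not reach that of the next gene.

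The make-up of the permease transcripts turned accordingly. AGP1 and GAP1 together made up 49.5% and 51.3% of the summed CPM per kb of the 10 genes in the deletion with rapamycin and 53.3% and 57.6% in wild type with rapamycin. They made up 2.90% and 3.10% in the untreated deletion and 5.66% and 4.08% in untreated wild type. BAP2, TAT1 and GNP1 together held 20.9% and 19.8% in the deletion with rapamycin and 16.5% and 13.1% in wild type with rapamycin, against 64.5% and 64.6% in the untreated deletion and 62.6% and 62.3% in untreated wild type. The summed level itself was 1472 and 1824 CPM per kb in the deletion with rapamycin and 1317 and 1742 in wild type with rapamycin. It was 861 and 1018 in the untreated deletion and 819 and 1072 in untreated wild type, so that the rapamycin libraries lay above the untreated ones.

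**Figure D1:**
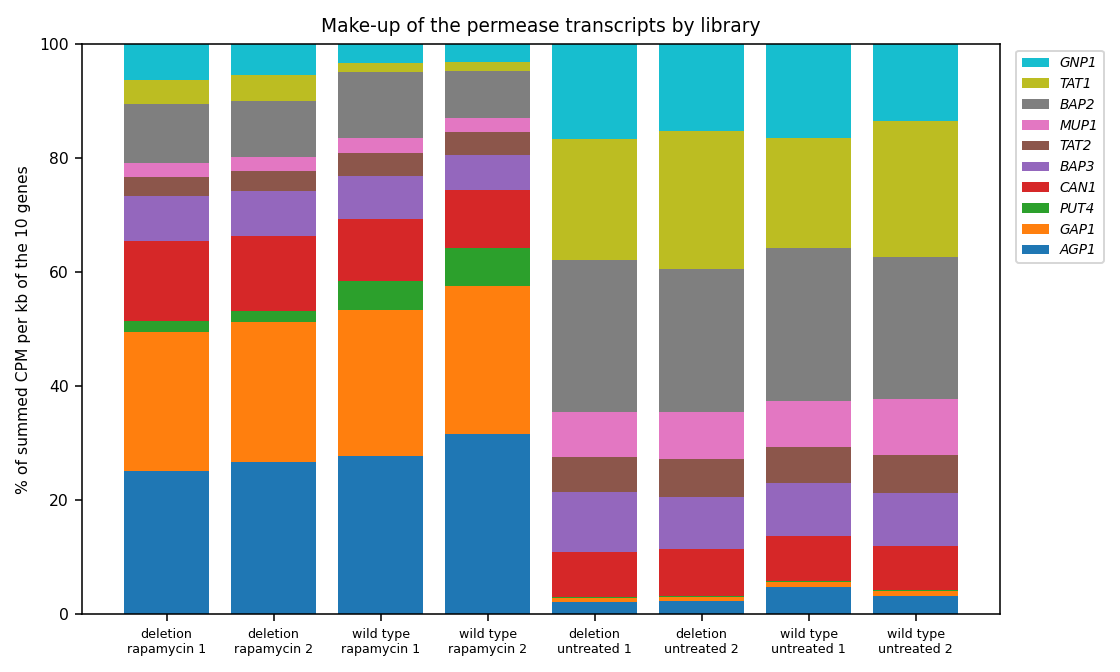
Share of each gene in the summed CPM per kb of the 10 permease genes (vertical axis, %), 1 bar per library. AGP1 and GAP1 make up 49.5% to 57.6% in the 4 rapamycin libraries and 2.90% to 5.66% in the 4 untreated ones.

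Rapamycin was compared with no treatment in each genotype by edgeR's quasi-likelihood test, with p-values adjusted over all genes tested and called under 0.05. In the deletion 9 of the 10 permease genes were called, 5 higher and 4 lower, where 57.4% of all genes were called, 28.6% higher and 28.7% lower. In wild type 8 were called, 4 higher and 4 lower, where 68.7% of all genes were called, 34.8% higher and 33.9% lower. The median log2 fold change of the 10 was 0.21 in the deletion and 0.11 in wild type, beside -0.01 and 0.02 over all genes. The single changes ran from -1.56 to 5.94 in the deletion and from -3.07 to 5.70 in wild type.

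GAP1 and PUT4, named above as examples of genes under nitrogen catabolite repression, rose in both genotypes. GAP1 (YKR039W; sacCer3, chromosome XI, 515063 to 516871) encodes a permease that takes up nearly all amino acids. It had 646 and 811 CPM in the deletion with rapamycin, 610 and 817 CPM in wild type with rapamycin, 10.6 and 13.1 CPM in the untreated deletion, and 12.4 and 14.9 CPM in untreated wild type. The treated and untreated libraries lay far apart and the genotypes overlapped within each condition. The rise was 61.5-fold in the deletion, a log2 fold change of 5.94 ± 0.23 (SE; edgeR adjusted p = 2.42e-06), and 51.9-fold in wild type, 5.70 ± 0.23 (edgeR adjusted p = 1.14e-06).

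PUT4 (YOR348C; chromosome XV, 986899 to 988782) encodes the high-affinity proline permease. It had 53.1 and 68.6 CPM in the deletion with rapamycin, 128 and 214 CPM in wild type with rapamycin, 3.69 and 4.22 CPM in the untreated deletion, and 4.36 and 3.54 CPM in untreated wild type. Behind the untreated values stood 68 to 77 reads per library. PUT4 was higher with rapamycin in every library of both genotypes, and both deletion libraries lay below both wild type libraries in the treated cells. The log2 fold change was 3.95 ± 0.29 in the deletion (15.4-fold; edgeR adjusted p = 2.55e-05) and 5.45 ± 0.30 in wild type (43.6-fold; edgeR adjusted p = 2.7e-06).

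The 6 targets of the Ssy1 sensor did not move as a group. In the deletion 2 rose, 3 fell and 1 was not called, and in wild type 1 rose, 3 fell and 2 were not called. AGP1 (YCL025C; chromosome III, 76018 to 77919) rose in both. It had 706 and 926 CPM in the deletion with rapamycin, 693 and 1051 in wild type with rapamycin, 36.3 and 46.1 in the untreated deletion, and 75.2 and 67.5 in untreated wild type. Its log2 fold change was 4.31 ± 0.25 in the deletion (19.8-fold; edgeR adjusted p = 1.18e-05) and 3.61 ± 0.24 in wild type (12.2-fold; edgeR adjusted p = 6.62e-06).

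GNP1 and TAT1 fell in both genotypes, and less far in the deletion. GNP1 (YDR508C; chromosome IV, 1466453 to 1468444), the high-affinity glutamine permease gene, had 185 and 201 CPM in the deletion with rapamycin, 86.7 and 109 in wild type with rapamycin, 285 and 311 in the untreated deletion, and 269 and 289.8 in untreated wild type. TAT1 (YBR069C; chromosome II, 376574 to 378433) had 117 and 153 CPM in the deletion with rapamycin, 39.5 and 51.9 in wild type with rapamycin, 339.9 and 458 in the untreated deletion, and 294 and 473 in untreated wild type. For both genes no treated library reached an untreated one, and the treated wild type libraries were the lowest of all.

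The log2 fold change of GNP1 was -0.62 ± 0.13 in the deletion (edgeR adjusted p = 0.00369) and -1.51 ± 0.13 in wild type (edgeR adjusted p = 2.21e-05). That of TAT1 was -1.56 ± 0.26 in the deletion (edgeR adjusted p = 0.00156) and -3.07 ± 0.28 in wild type, an 8.4-fold decrease (edgeR adjusted p = 3.28e-05). An antisense RNA, TBRT (chromosome II, 376610 to 378633), is annotated across TAT1, and since the use of strand in counting is not stated, reads of TAT1 and TBRT cannot be told apart. GNP1 and AGP1, and BAP2 and BAP3, are related pairs, and how reads that match more than 1 gene were counted is not stated.

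The 2 branched-chain permease genes differed in direction. BAP2 (YBR068C; chromosome II, 373861 to 375690), which lies 883 bases from TAT1, had 278 and 326 CPM in the deletion with rapamycin, 278 and 265 in wild type with rapamycin, 421 and 466 in the untreated deletion, and 402 and 490.5 in untreated wild type. It fell by 0.55 ± 0.13 on the log2 scale in the deletion (edgeR adjusted p = 0.00784) and by 0.72 ± 0.13 in wild type (edgeR adjusted p = 0.00156). The deletion call was lost without rph1 deletion rapamycin replicate 1 (edgeR adjusted p = 0.068) and without untreated deletion replicate 2 (0.0549). BAP3 (YDR046C; chromosome IV, 548762 to 550576) had 209 and 263 CPM in the deletion with rapamycin, 178 and 197 in wild type with rapamycin, 164 and 169 in the untreated deletion, and 139 and 180.5 in untreated wild type. It rose in the deletion, by 0.50 ± 0.15 (edgeR adjusted p = 0.024), and had 0.23 ± 0.15 in wild type (edgeR adjusted p = 0.214), where treated and untreated libraries overlapped.

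Whether BAP3 was called depended on single libraries. The deletion call was lost without rph1 deletion rapamycin replicate 2 (edgeR adjusted p = 0.13), untreated deletion replicate 1 (0.0883) and untreated deletion replicate 2 (0.0762). In wild type a call was gained without untreated wild type replicate 2 (0.0428). The difference between the genotypes' changes was 0.27 ± 0.22 (edgeR adjusted p = 0.451). TAT2 (YOL020W; chromosome XV, 286172 to 287950), the tryptophan permease gene, was not called in either genotype. It had 87.0 and 116 CPM in the deletion with rapamycin, 94.6 and 124 in wild type with rapamycin, 94.2 and 122 in the untreated deletion, and 92.0 and 128 in untreated wild type, and all 4 groups overlapped. Its log2 fold change was -0.09 (95% interval -0.60 to 0.42) in the deletion and -0.02 (-0.53 to 0.49) in wild type.

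Of the 2 permease genes not yet described, CAN1 rose and MUP1 fell in both genotypes. CAN1 (YEL063C; chromosome V, 31694 to 33466), for arginine, had 368 and 419.5 CPM in the deletion with rapamycin, 255 and 314 in wild type with rapamycin, 119 and 146 in the untreated deletion, and 112 and 147 in untreated wild type. It rose by 1.57 ± 0.17 in the deletion (2.98-fold; edgeR adjusted p = 0.000184) and by 1.13 ± 0.17 in wild type (2.2-fold; edgeR adjusted p = 0.000562). MUP1 (YGR055W; chromosome VII, 599417 to 601141), the high-affinity methionine permease gene, had 61.7 and 75.3 CPM in the deletion with rapamycin, 61.4 and 72.3 in wild type with rapamycin, 117 and 143 in the untreated deletion, and 114 and 179 in untreated wild type. It fell by 0.93 ± 0.22 in the deletion (edgeR adjusted p = 0.00727) and by 1.13 ± 0.22 in wild type (edgeR adjusted p = 0.00198). The deletion call of MUP1 was lost without rph1 deletion rapamycin replicate 1 (edgeR adjusted p = 0.0542).

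**Figure D2:**
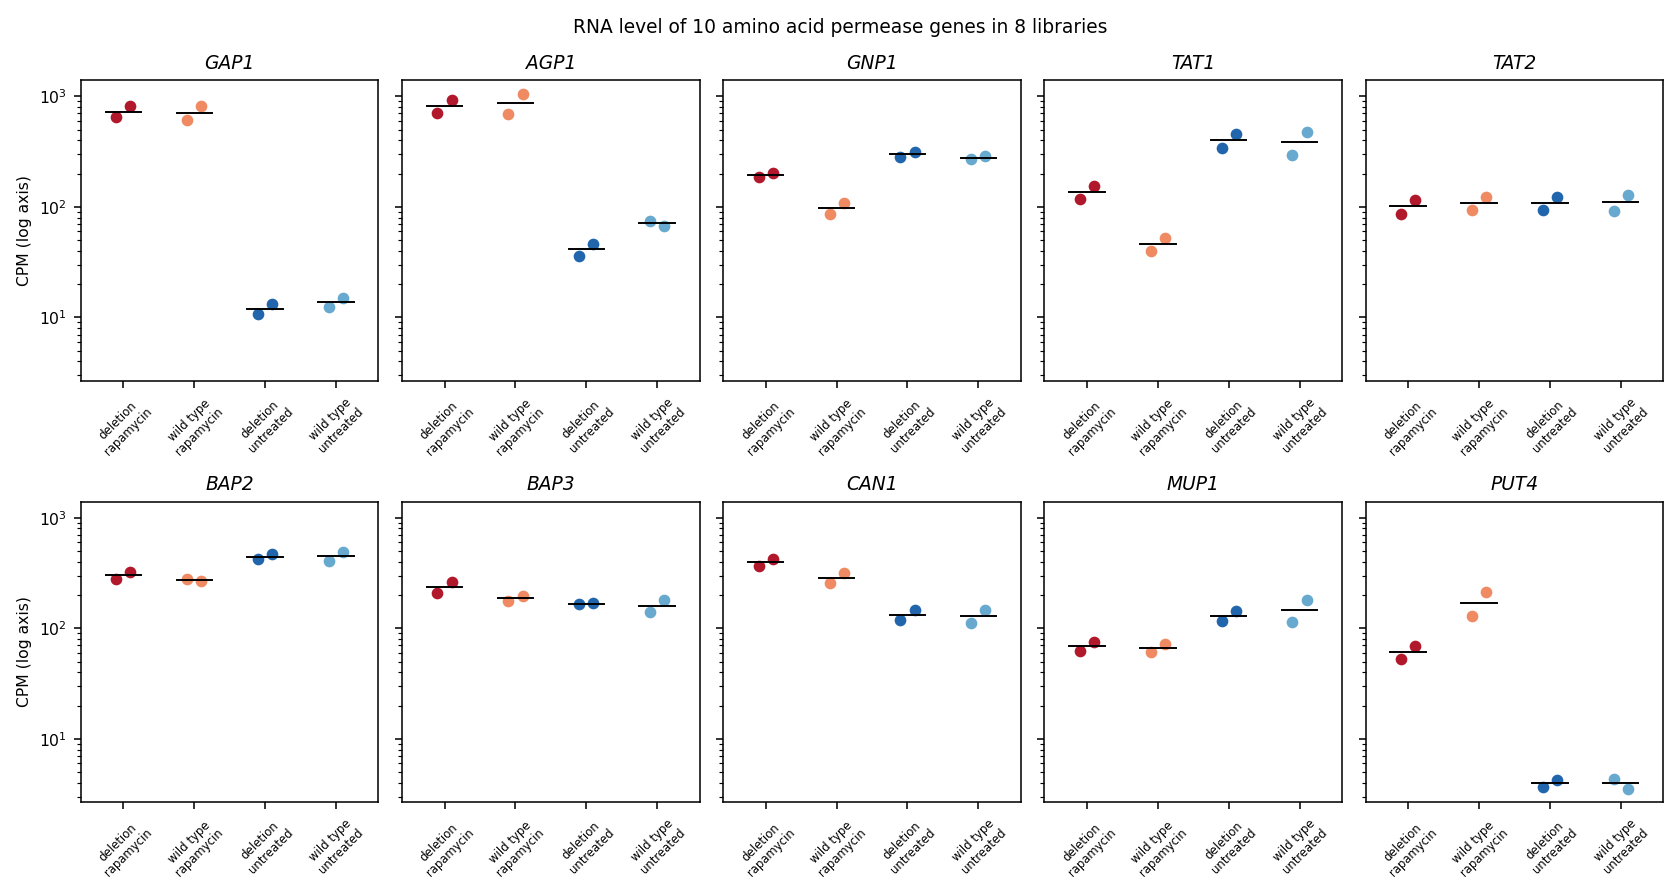
CPM (log axis) of each permease gene in each of the 8 libraries, with a line at the mean of the 2 libraries of a group. GAP1, AGP1 and PUT4 have their 4 rapamycin libraries far above the 4 untreated ones, and TAT1 is lowest in wild type with rapamycin (39.5 and 51.9 CPM).

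**Figure D3:**
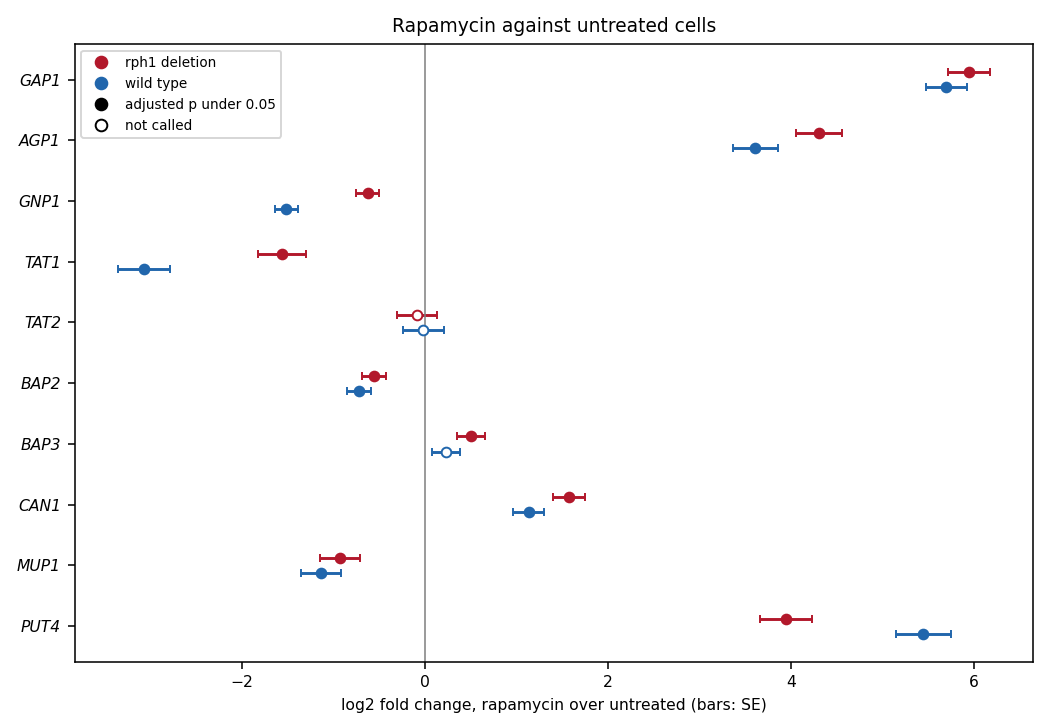
Log2 fold change of rapamycin over untreated cells (horizontal axis; bars are SE) in the rph1 deletion and in wild type, with filled points for edgeR adjusted p under 0.05. GNP1 and TAT1 lie nearer 0 in the deletion (-0.62 and -1.56) than in wild type (-1.51 and -3.07), as does PUT4 (3.95 against 5.45).

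Deletion of RPH1 was compared with wild type within each condition, to ask what Rph1 does to these genes. With rapamycin 3 of the 10 were called, GNP1 and TAT1 higher and PUT4 lower in the deletion, where 28.0% of all genes were called, 14.4% higher and 13.5% lower. In untreated cells none of the 10 was called by edgeR, where 7.41% of all genes were called, 4.88% higher and 2.53% lower. There 1 had an unadjusted p under 0.05, and DESeq2 called 1, AGP1. The median of the 10 was 0.09 with rapamycin and 0.00 untreated, beside 0.00 and -0.05 over all genes.

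With rapamycin GNP1 was 1.97-fold higher in the deletion than in wild type, by 0.98 ± 0.13 (edgeR adjusted p = 0.00196). TAT1 was 2.96-fold higher, by 1.56 ± 0.27 (edgeR adjusted p = 0.00493). PUT4 was 2.8-fold lower in the deletion, by -1.49 ± 0.23 (edgeR adjusted p = 0.00348). Both deletion libraries lay on the same side of both wild type libraries for each of these genes, and the 3 calls held under all 14 alternatives tried.

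The strongly induced GAP1 and AGP1 did not pass this test. With rapamycin the difference between deletion and wild type was 0.03 for GAP1 (95% interval -0.39 to 0.45) and -0.10 for AGP1 (-0.60 to 0.41). It was 0.15 for BAP2 (-0.15 to 0.46), 0.04 for MUP1 (-0.46 to 0.53), -0.10 for TAT2 (-0.61 to 0.41) and 0.33 for BAP3 (-0.02 to 0.69). CAN1 had 0.47 ± 0.17 (edgeR adjusted p = 0.0738), with both deletion libraries above both wild type libraries. It was called by DESeq2 (adjusted p = 0.0204), with only the 4 libraries compared (edgeR adjusted p = 0.026) and without either untreated wild type library. With replicate number as a block, CAN1 (edgeR adjusted p = 0.00262) and BAP3 (0.0281) were both called, though replicate numbers are not stated to pair libraries.

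In untreated cells the differences of 9 genes lay between -0.21 for GAP1 and 0.09 for GNP1. AGP1 had -0.79 ± 0.23 (edgeR adjusted p = 0.0771), with both deletion libraries below both wild type libraries, and DESeq2 called it (adjusted p = 0.00634). PUT4, with few reads, had the widest interval, from -0.77 to 0.79.

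**Figure D4:**
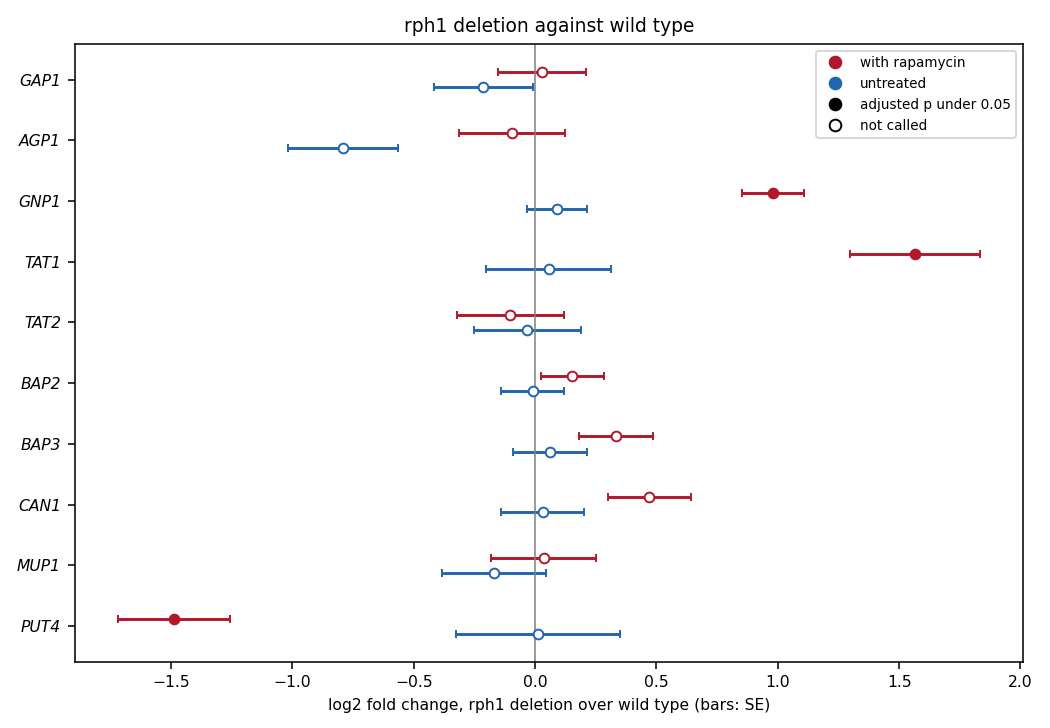
Log2 fold change of the rph1 deletion over wild type (horizontal axis; bars are SE), with rapamycin and untreated, with filled points for edgeR adjusted p under 0.05. GNP1 (0.98), TAT1 (1.56) and PUT4 (-1.49) are called with rapamycin, and no gene is called in untreated cells.

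The interaction, which subtracts the wild type response to rapamycin from that of the deletion, was called for 3 genes, GNP1 and TAT1 higher and PUT4 lower, where 13.1% of all genes were called, 7.04% higher and 6.08% lower. It was 0.89 ± 0.18 for GNP1 (edgeR adjusted p = 0.0191), 1.51 ± 0.37 for TAT1 (0.0359) and -1.50 ± 0.41 for PUT4 (0.0492). These calls rested on single libraries. GNP1 missed the threshold without rph1 deletion rapamycin replicate 1 (0.0614) or 2 (0.0682) and untreated deletion replicate 1 (0.0772). TAT1 missed it without these 3 libraries (0.072, 0.106 and 0.111), without wild type rapamycin replicate 1 (0.1) or 2 (0.0655) and without untreated wild type replicate 2 (0.0624). PUT4 kept its call only without wild type rapamycin replicate 1, and had edgeR adjusted p between 0.0586 and 0.137 without each other library. The sign was the same in all 13 alternatives for each of the 3. The other 7 genes were not called, with AGP1 at 0.70 ± 0.31 (0.183), CAN1 at 0.44 ± 0.24 (0.268) and GAP1 at 0.24 ± 0.27 (0.597).

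The authors' deposited gene lists of FLAG-Rph1 ChIP give 1 fold enrichment per listed gene, and whether replicates were pooled is not stated. With rapamycin the list held 5 of the 10 permease genes, where 9.79% of the 7036 entries were listed. In untreated cells it held 2 of the 10, where 6.61% were listed. BAP2 was in both lists. AGP1, GAP1, CAN1 and MUP1 were in the rapamycin list and TAT1 in the untreated list, while GNP1, TAT2, BAP3 and PUT4 were in neither.

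In the rapamycin list AGP1 had a fold enrichment of 341 in the authors' deposited table, rank 24 of 705 listed genes. GAP1 had 86.4 (rank 116), CAN1 39.3 (rank 235), BAP2 21.1 (rank 420) and MUP1 21.0 (rank 424), where the list's median was 25.3. In the untreated list BAP2 had 42.4 (rank 243 of 466) and TAT1, its neighbour, 12.6 (rank 402), where the median was 45.02. No other gene of a list carried the same value as any of these permease genes. In the rapamycin list TIP1, on the other side of BAP2, had 32.0.

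The 5 genes in the rapamycin list were all called for rapamycin in both genotypes, AGP1, GAP1 and CAN1 higher and BAP2 and MUP1 lower. Of the 643 tested genes in that list, 70.3% were called in the deletion and 81.5% in wild type, so this count reads as no more than the list's own share. The deletion calls of BAP2 and MUP1 were those lost without single libraries. In the deletion with rapamycin, 0 of these 5 differed from wild type by edgeR, against 3 of the 5 that were not in this list. Over all genes tested, 42.5% of 643 listed genes and 26.3% of 5526 others were called in that comparison. The count of 0 does not hold under every alternative, since CAN1, a listed gene, was called by DESeq2, with only the 4 libraries and without either untreated wild type library. With replicate number as a block CAN1 was called too, as was BAP3 of the genes not in this list. With 5 genes on each side, no test was made of this split.

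**Figure D5:**
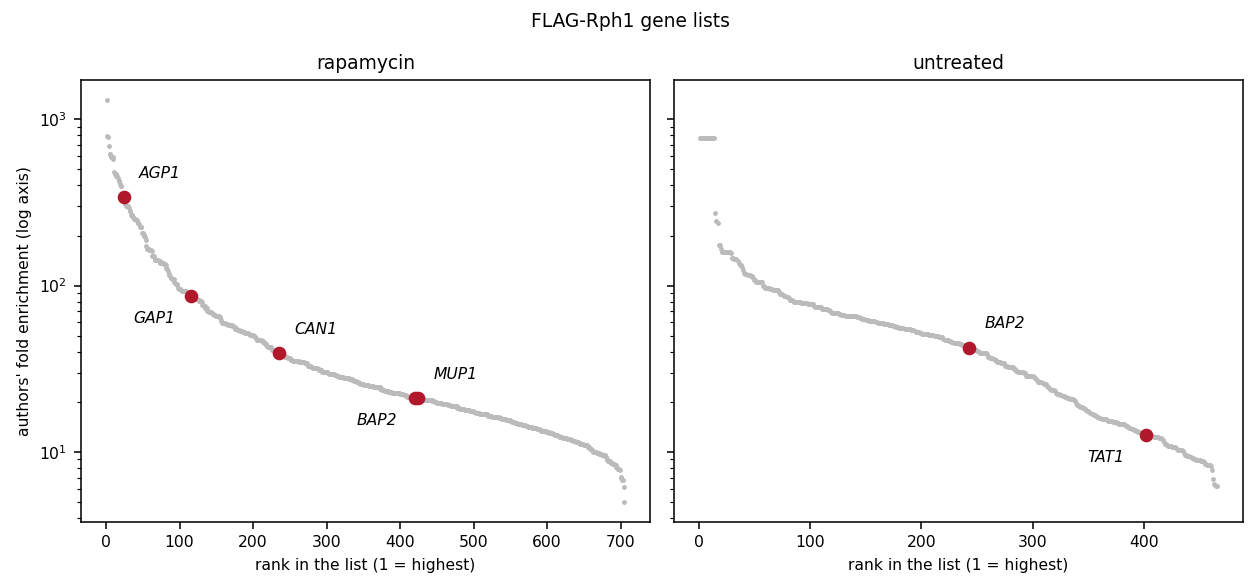
The authors' fold enrichment (log axis) against rank in the FLAG-Rph1 gene lists, with rapamycin (705 genes) and untreated (466 genes), each listed gene a grey point and the permease genes in red. AGP1 (341) and GAP1 (86.4) lie in the upper part of the rapamycin list, and BAP2 and TAT1 below the median of the untreated list.

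For each permease gene the 2 genes with the most similar profile over the 8 libraries were sought among 5312 others, by the root mean squared difference of log2 CPM after each gene was centred on its own mean. The libraries share groups and scaling, so likeness here follows the response to rapamycin where there is one, and the order of the 2 libraries of a group where there is none. Nearest to GAP1 were the ammonium permease gene MEP2 (difference 0.16, Pearson r = 0.999, 8 libraries) and the GATA factor gene DAL80 (0.46). Nearest to PUT4 were AMD2, a putative amidase gene (0.22), and UGA1, the GABA transaminase gene (0.31). Nearest to AGP1 were SER3 of serine synthesis (0.34) and YAT2, a carnitine acetyltransferase gene (0.36).

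Among the genes that fell, TAT1 was most like GFD2 (0.18) and URA7, a CTP synthase gene (0.22), and GNP1 was most like YPL068C (0.11) and the histone deacetylase gene SIR2 (0.14). BAP2 was most like SIZ1, a SUMO ligase gene, and CDS1 of phospholipid synthesis (both 0.05). MUP1 was most like the drug pump gene SNQ2 and ARB1 of ribosome assembly (both 0.08). BAP3 had another permease gene, LYP1 for lysine, as its nearest (0.09). CAN1 was nearest to YPL229W (0.08) and to JHD2, a JmjC demethylase gene (0.16). TAT2, which was not called for rapamycin and whose replicate 2 was the higher in all 4 groups, was nearest to HEM1 of haem synthesis (0.06). Between the permease genes themselves r ran from 0.99 for GAP1 with AGP1 and 0.98 for GNP1 with TAT1 to -0.95 for BAP2 with PUT4.

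Of 15 other transporters of amino acids, peptides and related compounds at the cell surface, 9 rose and 2 fell with rapamycin in each genotype. Over all genes 28.6% rose and 28.7% fell in the deletion, and 34.8% rose and 33.9% fell in wild type. UGA4, the GABA permease gene, had 5.53 ± 0.13 in the deletion and 7.09 ± 0.14 in wild type. DIP5, for glutamate and aspartate, had 2.60 ± 0.21 and 2.88 ± 0.21, and BIO5, for a biotin precursor, had 1.80 ± 0.16 and 1.97 ± 0.17. The medians of the 15 were 0.93 and 0.77. Between the genotypes with rapamycin the shares over all genes were 14.4% higher and 13.5% lower. Here 1 of the 15 was higher in the deletion than in wild type, the oligopeptide transporter gene OPT2 (0.64 ± 0.11, edgeR adjusted p = 0.00557), and 1 was lower, UGA4 (-1.31 ± 0.11, edgeR adjusted p = 0.000613).

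Among 13 tested genes for amino acid transporters of the vacuole, 8 rose and 0 fell in the deletion, where 9 had an unadjusted p under 0.05. In wild type 10 rose and 1 fell. Over all genes 57.4% were called in the deletion, 28.6% higher and 28.7% lower, and 68.7% in wild type, 34.8% higher and 33.9% lower. RTC2, a putative transporter of basic amino acids, had 3.71 ± 0.28 in the deletion and 4.98 ± 0.29 in wild type. AVT4, which moves amino acids out of the vacuole, had 1.13 ± 0.11 and 1.06 ± 0.11. With rapamycin 28.0% of all genes were called between deletion and wild type by edgeR, 14.4% higher and 13.5% lower. Of the 13 vacuolar genes 3 were called, each of them lower in the deletion. They were RTC2 (-1.23 ± 0.23, edgeR adjusted p = 0.00702), AVT2 (-0.89 ± 0.13, edgeR adjusted p = 0.00255) and ERS1, which exports cystine (-0.79 ± 0.12, edgeR adjusted p = 0.00305). RTC2 lost its call without rph1 deletion rapamycin replicate 1 (0.0725). YPQ2, a putative exporter of basic amino acids, had 0.28 and was called higher by DESeq2 (adjusted p = 0.0374), among other alternatives. AVT2 lies 454 bases from CAN1, which had 0.47 in the same comparison.

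Of 24 genes that sense amino acids or control permease transcription, 11 rose and 7 fell in the deletion, and 11 rose and 8 fell in wild type. Over all genes 57.4% were called in the deletion, 28.6% higher and 28.7% lower, and 68.7% in wild type, 34.8% higher and 33.9% lower. DAL80, a GATA repressor, had 7.52 ± 0.25 in the deletion and 6.75 ± 0.25 in wild type. Its lowest level in a library was 0.097 CPM, so the size of these changes rests on few reads. Over the alternatives they ran from 7.03 to 8.16 in the deletion and from 6.46 to 7.27 in wild type. STP2, which carries the Ssy1 signal, had 1.46 ± 0.09 and 1.91 ± 0.09, and the repressor gene UME6 had -1.10 ± 0.08 and -1.19 ± 0.08. With rapamycin 3 of the 24 were higher and 5 lower in the deletion than in wild type. Over all genes 28.0% were called there, 14.4% higher and 13.5% lower. STP2 was lower (-0.54 ± 0.09, edgeR adjusted p = 0.00377), a call lost without rph1 deletion rapamycin replicate 1 (0.0521). GCN4, the activator of amino acid synthesis, was also lower (-0.54 ± 0.12, edgeR adjusted p = 0.0119), and missed the threshold without rph1 deletion rapamycin replicate 1 (0.0742) or 2 (0.0845) and wild type rapamycin replicate 1 (0.0543). GLN3, which encodes a GATA factor, was lower as well (-0.41 ± 0.10, edgeR adjusted p = 0.0187). Its difference ran from -0.49 to -0.26 over the alternatives, and its call was lost without some single libraries. The 3 that were higher, named after their values were seen, also encode GATA factors: GAT1 (0.55 ± 0.16, edgeR adjusted p = 0.0373), DAL80 (0.51 ± 0.13, edgeR adjusted p = 0.025) and GZF3 (0.43 ± 0.13, edgeR adjusted p = 0.0418). Each of these missed the threshold without rph1 deletion rapamycin replicate 1 (0.176, 0.121 and 0.133) or 2 (0.0598, 0.0816 and 0.0964) and without wild type rapamycin replicate 1 (0.15, 0.0916 and 0.135). DAL80 (0.0828) and GZF3 (0.0789) also missed it without wild type rapamycin replicate 2. GAT1 missed it without untreated deletion replicate 2 (0.0504), and GZF3 without untreated deletion replicate 1 (0.0527) or 2 (0.0532). In the authors' deposited table GCN4 had a fold enrichment of 426 with rapamycin and 106 untreated.

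Of 28 genes for folding, trafficking and turnover of permeases, 13 rose and 3 fell in the deletion, and 13 rose and 6 fell in wild type. Calls in either direction were near the 57.4% and 68.7% of all genes called. By direction, 28.6% of all genes rose and 28.7% fell in the deletion, and 34.8% rose and 33.9% fell in wild type. CSR2, an arrestin-like adaptor for the ubiquitin ligase Rsp5, had 2.40 ± 0.19 in the deletion and 2.23 ± 0.19 in wild type. ART5, another adaptor of this kind, had -1.06 ± 0.19 and -1.30 ± 0.19. With rapamycin 6 of the 28 were called between deletion and wild type by edgeR, each of them lower in the deletion. Over all genes 28.0% were called there, 14.4% higher and 13.5% lower. TRE1, whose product acts with Rsp5 in the sorting of transporters to the vacuole, was lower (-0.66 ± 0.09, edgeR adjusted p = 0.00243) and was called under all 14 alternatives. The adaptor gene BUL1, which acts in the removal of Gap1 from the cell surface, was lower (-0.46 ± 0.09, edgeR adjusted p = 0.00686), a call lost without rph1 deletion rapamycin replicate 1 (0.0685). In untreated cells 3 genes of the 4 lists were called, where 7.41% of all genes were called: AVT6 (1.0 ± 0.16) and AGP3 (0.58 ± 0.13) were higher and AVT2 (-0.65 ± 0.13) was lower in the deletion. AVT6 lost its call without untreated deletion replicate 1 (edgeR adjusted p = 0.08) and AGP3 without each of the 8 libraries (0.0553 to 0.164). AVT2 lost its call without untreated deletion replicate 1 (0.155) or 2 (0.0997) and untreated wild type replicate 1 (0.0606) or 2 (0.0561). With only the 4 untreated libraries none of the 3 was called (AVT6 0.0672, AGP3 0.118, AVT2 0.0966). Alternatives were looked up only for the 4 genes of each list with the smallest p-value in this comparison. Among these DESeq2 added PTR2 (-0.78, adjusted p = 0.00674), AVT7 (0.36, adjusted p = 0.0296) and TRE1 (-0.36, adjusted p = 0.0275).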

How the data were processed

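For RNA-seq the authors deposited whole-number counts of reads for each gene, not normalised. The submitters' processing notes name the build sacCer3 and the tools MACS2 2.2.1, Bowtie2 2.3.4.3, DESeq2 1.24.0, featureCounts 1.6.3, STAR 2.5.3a and Trimmomatic 0.38. Their roles, the gene models and whether strand was used are not given in the sources used here. The deposited FLAG-Rph1 lists give, per the file headers, a fold enrichment (a ratio) per gene, whose control is not given.

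Symbols, coordinates and gene lengths came from the R64 gene table, to which 5956 of 7036 entries matched. Tests used edgeR 4.0.16 (R 4.3.3), with filterByExpr at a minimum count of 10, TMM scaling, and 1 quasi-likelihood model of the 4 groups over the 8 libraries, which gives them 1 shared estimate of the spread. P-values were adjusted by Benjamini-Hochberg over all genes tested. The SE was computed from the F statistic, and 95% intervals from the SE and the fit's degrees of freedom. Profiles were compared on log2 CPM with a prior count of 2, for genes averaging 10 CPM or more. The procedure was tested on simulated counts. Alternatives were RLE and upper-quartile scaling, DESeq2 1.42.0, no filter on low counts, only the 4 libraries compared, a replicate block and leaving out each library.

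The 10 genes and the lists were chosen with earlier results of these data known. All 10 were tested in every comparison. From each list, genes were named from among the 4 with the smallest p-value in a comparison. GAT1, DAL80 and GZF3, between the genotypes with rapamycin, were exceptions, named after their values were seen. Other list genes were named for their presence in the FLAG-Rph1 lists. ChIP of RNA polymerase II was not used here.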

Additional observations from a re-analysis of the deposited data

Results flagged for a closer look

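The rapamycin change differed between the genotypes by a test of the difference itself for 3 permease genes and for 6 genes of the other lists, each given here as the change in the rph1 deletion minus that in wild type on the log2 scale, by edgeR. By list, 1 of 15 surface transporter genes was higher and 1 lower, and 1 of 13 vacuolar genes was lower. Among 24 sensing and control genes 1 was lower, and among 28 trafficking genes 2 were lower. Over all genes 13.1% were called, 7.04% higher and 6.08% lower. The permease genes were GNP1 (0.89), TAT1 (1.51) and PUT4 (-1.50). The surface transporter genes were UGA4 (-1.55, edgeR adjusted p = 0.00622) and OPT2 (0.96, edgeR adjusted p = 0.0116). The others were AVT6 (-0.81, edgeR adjusted p = 0.0474), STP2 (-0.45, edgeR adjusted p = 0.0497), the arrestin-like adaptor gene ROD1 (-0.56, edgeR adjusted p = 0.0331) and BUL1 (-0.46, edgeR adjusted p = 0.0457). UGA4 kept its call under all 13 alternatives, with edgeR adjusted p of at most 0.0341, and OPT2 under all but the fit without rph1 deletion rapamycin replicate 1 (0.0518). Of the 13 alternatives, AVT6 kept its call in 7, ROD1 in 6, BUL1 in 6 and STP2 in 3. Calls of AVT6, ROD1 and BUL1 were lost without most single libraries, and that of STP2 whichever library was left out. STP2 also lost its call with RLE scaling (edgeR adjusted p = 0.0588) and with no filter on low counts (0.054).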

How the results depend on the processing

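Of the 10 permease genes, the 3 called in the deletion with rapamycin were called under every alternative, and so were all 8 wild type rapamycin calls. With a replicate block, 5 were called in the deletion with rapamycin (BAP3, edgeR adjusted p = 0.0281, and CAN1, 0.00262, added), 1 in untreated cells (AGP1) and 5 in the interaction (AGP1 and CAN1 added). The block raised calls over all genes as well. Of 6169 genes tested, 2543 were called with the block in the deletion with rapamycin, against 1725 without it. DESeq2 called 1 in untreated cells. Without single libraries the counts ran from 0 to 2 in the interaction, 7 to 9 for rapamycin in the deletion, 8 to 9 for rapamycin in wild type, 3 to 4 for the deletion with rapamycin and 0 to 0 for the untreated deletion. Of the listed permease genes, 3 with rapamycin and 0 untreated lay at or above the median fold enrichment.

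Replicate numbers are not stated to pair libraries. Differences between replicate 1 and 2 correlated between groups across genes with r from 0.19 to 0.56, a hint from the data only. Of the list genes named or ranked first by p in untreated cells, the block added PTR2 (edgeR adjusted p = 0.000871), TRE1 (0.0108), STP3 (0.0337), ART10 (0.0379), TRE2 (0.0384) and AVT7 (0.0448). Over all genes, the untreated deletion had 457 calls, against 706 by DESeq2, 14 with only the 4 libraries, 1102 with the block and 54 to 498 without single libraries. The interaction had 809, against 1648 with the block and 96 to 1020 without single libraries. The deletion with rapamycin had 1725, against 647 to 1994 without single libraries. Where a library is left out, the lone one of its group is assumed to vary like the other groups. Unscaled totals moved 11 of 40 permease levels by more than 1 SD.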

Other observations

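Replicate 2 had the higher level in all 4 groups for 7 of the 10 permease genes (GAP1, GNP1, TAT1, TAT2, BAP3, CAN1 and MUP1), and in 3 of 4 groups for AGP1, BAP2 and PUT4. Over all 6169 genes tested, replicate 2 was the higher in all 4 groups for 18.8%. The part of this in the spread behind the tests was not tested apart from the replicate block.

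The rapamycin list of FLAG-Rph1 also held 5 of the 15 other surface transporter genes, where 9.79% of all entries were listed. In the authors' deposited table DIP5 had a fold enrichment of 302, the dipeptide transporter gene PTR2 141, UGA4 54.8, LYP1 35.4 and SAM3, for S-adenosylmethionine, 32.5. The untreated list, with 6.61% of all entries, held none of the 15. Of the 24 sensing and control genes the rapamycin list held GCN4, STP2, URE2 and GLN3, and of the 28 trafficking genes PIL1, LSP1 and NPR1, 3 of 28 being near the share of all entries.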
